A study of Homo sapiens with 18 samples.

Results

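Posterior and anterior neural ectoderm made from the human pluripotent stem cell line H1 were carried through the same midbrain medium, and their messenger RNA was compared at day 4. The comparison rests on 4 of the 18 libraries of the series, 2 of cells with posterior origin (pNE_M) and 2 of cells with anterior origin (aNE_M), chosen by their labels alone. H1 is an established, wild-type human embryonic stem cell line, so all groups share 1 genotype and 1 line. Both groups spent day 1 in a common ectoderm medium with A8301 at 1 µM (an inhibitor of TGF-beta type receptors), trametinib at 250 nM (a MEK inhibitor), C59 at 1 µM (a porcupine inhibitor that blocks WNT secretion) and LDN193189 at 100 nM (a BMP receptor inhibitor). On day 2 both media held A8301 at 1 µM, LDN193189 at 100 nM and the ROCK inhibitor thiazovivin at 1 µM. The anterior medium added C59 at 1 µM, whereas the posterior medium added XAV939 at 1 µM (which blocks tankyrase and so WNT signalling), the growth factor FGF2 at 20 ng/mL and TTNPB at 50 nM (a synthetic agonist of retinoic acid receptors). Cells meant for day 4 were plated at 75000 cells per cm2 in the anterior medium and at 150000 cells per cm2 in the posterior medium, so origin and plating density cannot be told apart. What the midbrain medium held is not given in the sources used here.

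In the vertebrate neural plate, OTX2 marks the forebrain and midbrain, EN1, EN2, PAX2 and PAX5 mark the midbrain and the isthmus at its hindbrain border, and HOX genes mark the hindbrain and spinal cord. HOX genes lie in 4 clusters and are used in order along the body axis, with low-numbered paralogues in the hindbrain and higher-numbered ones in the trunk. CDX factors act upstream of trunk HOX genes in caudal progenitors, and retinoic acid, FGF and WNT signals are the classical posteriorising cues.

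Expression was given as TPM (transcripts scaled to a fixed sum), in which each library sums to the same total, so the number of reads behind a value is unknown and no counting error can be given. Between 13686 and 14002 genes reached 1 TPM in the 4 libraries. The 2 libraries of a group correlated across genes at r = 0.984 (aNE_M) and 0.985 (pNE_M), and libraries of different groups at 0.946 to 0.947. The labels number the samples of a group as replicates and do not say whether they came from separate cultures. The p-values measure a spread between replicates that may be technical, pooled over all 18 libraries in 9 groups. In a limma fit of the 4 libraries alone, the adjusted p was 7.7e-06 for EN1 and 5.9e-06 for CDX2. With all 18 libraries it was 6.35e-12 and 6.37e-10. EN1 was listed at 0 in both posterior libraries and EN2 was at most 0.0405 TPM there, so the midbrain name describes the medium of pNE_M, in which these defining markers of midbrain were absent or near 0. In bulk RNA a smaller number of expressing cells and less RNA per cell cannot be told apart, and this holds for every value below.

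Of 14247 genes that reached 1 TPM in 2 or more of the 4 libraries, 974 differed by origin, that is 6.84% of the genes tested. A gene was called at an adjusted p under 0.05 and a difference of at least 1 in log2(TPM + 1). Of these, 542 (3.8% of genes tested) were higher and 432 (3.03%) were lower in pNE_M. The median difference over all genes tested was -0.06. At a difference of at least 3, 55 genes were higher and 31 were lower. The values of the 2 groups did not overlap for any of the 974 genes, but with 2 libraries a group this held for 56.8% of all genes tested (8096). Of the tested genes 359 stayed below 1 TPM in both aNE_M libraries and 243 in both pNE_M libraries, and these could enter the test only through the group in which they were high. The 974 calls include 198 of the 359 and 115 of the 243, whose direction was fixed by the filter. Many of the gene lists below hold such genes, and the filter fixed their direction in the list counts as well.

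**Figure D1:**
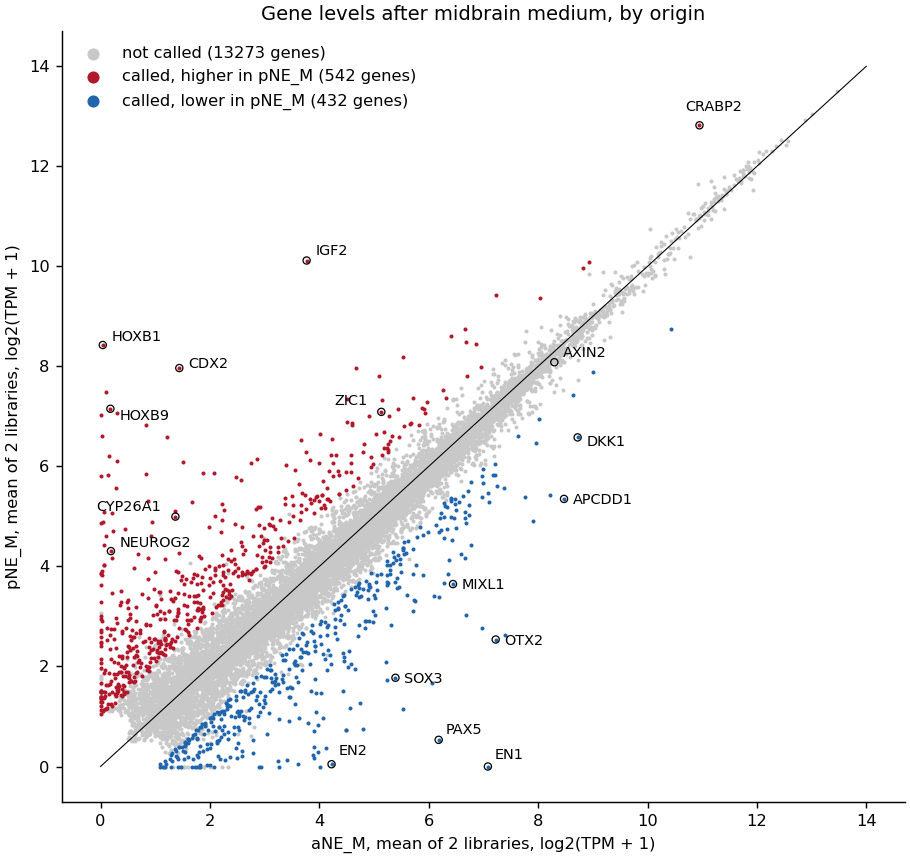
Mean log2(TPM + 1) of the 2 aNE_M libraries (horizontal) against the 2 pNE_M libraries (vertical) for the 14247 genes tested, with called genes in colour and equal levels on the black line. HOXB1, HOXB9 and CDX2 lie along the left edge, EN1, EN2 and PAX5 along the lower edge, and AXIN2 close to the line.

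HOX genes were near absent in aNE_M and raised in pNE_M. All 12 genes of paralogue groups 1 to 4 and 10 of the 15 genes of groups 5 to 9 were tested, and all 22 were called higher in pNE_M. Each was below 1 TPM in both aNE_M libraries and passed the filter through pNE_M, so the count itself carries no support beyond the single values. In this annotation (GRCh38.p14) the HOXA cluster lies at chr7:27092993-27200091, HOXB at chr17:48528526-48728750, HOXC at chr12:53938831-54056030 and HOXD at chr2:176087487-176190907. HOXB1, which patterns the fourth hindbrain segment, was at 0.0594 and 0 TPM in aNE_M and at 340.0 and 346 TPM in pNE_M, the highest HOX level of the 4 libraries. The difference was 8.39 ± 0.14 (SE) on the log2 scale, with an adjusted p of 2.20e-13. Its neighbours HOXB2 and HOXB3 stood at 173 and 184 TPM and 139 and 128 TPM in pNE_M and at no more than 0.27 TPM in any aNE_M library. HOXD1 was at 0.042 and 0 TPM in aNE_M and 95.8 and 97.9 TPM in pNE_M.

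Of the trunk paralogues, HOXB6 and HOXB9 reached the order of magnitude of HOXB2 and HOXB3, and the others called were lower. HOXB6 reached 138 and 121 TPM in pNE_M, while both aNE_M libraries listed it at 0 (adjusted p = 8.13e-12). HOXB9, the last HOXB gene before HOXB13, was at 0.146 and 0.12 TPM in aNE_M and 153 and 130.4 TPM in pNE_M, a difference of 6.97 ± 0.18 (SE, adjusted p = 8.51e-12). HOXB8 stood at 62 and 50.3 TPM in pNE_M, HOXA7 at 32 and 24.8 TPM and HOXC4, of groups 1 to 4, at 35.5 and 30.6 TPM. Each of these genes was at most 0.175 TPM in aNE_M. The level did not follow the paralogue number within the HOXB cluster: HOXB4 (31.8 and 26.1 TPM), HOXB5 (14.8 and 13.1 TPM) and HOXB7 (4.83 and 3.87 TPM) lay below HOXB6 and HOXB9 in both pNE_M libraries. Across the cluster 9 of 10 HOXB genes, 7 of 11 HOXA genes, 3 of 9 HOXC genes and 3 of 9 HOXD genes were called. HOXA9 (0.217 and 0.0418 TPM in pNE_M), HOXC8 (1.09 and 0.697 TPM), HOXC9, HOXD8 and HOXD9 stayed under the filter. All 12 genes of groups 10 to 13 were at most 0.243 TPM in the pNE_M libraries. Whether the quantification used strand is not given in the sources used here, so transcripts antisense to HOX genes cannot be separated from them beyond what the authors' tool did.

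Cells of posterior origin differed in trunk HOX levels between media as well. HOXB9 was at 0.0429 and 0 TPM at day 2, 0.137 and 0.297 TPM after forebrain medium and 0.0788 and 0.173 TPM after hindbrain medium. HOXB6, HOXB8 and HOXA7 likewise were at most 0.113 TPM in all 6 of those libraries. By contrast HOXB1 was already at 15.2 and 19.5 TPM at day 2 and at 347 and 312 TPM after hindbrain medium, which encloses its pNE_M level. Summed over groups 5 to 9, HOX levels were 431 and 363 TPM in pNE_M, 7.41 and 12.2 TPM in pNE_T and 20.0 and 18.7 TPM in pNE_H. Summed over groups 1 to 4, they were 995 and 984 TPM in pNE_M and 998 and 865 TPM in pNE_H, which overlap, and 697 and 715 TPM in pNE_T, which lie below both.

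**Figure D2:**
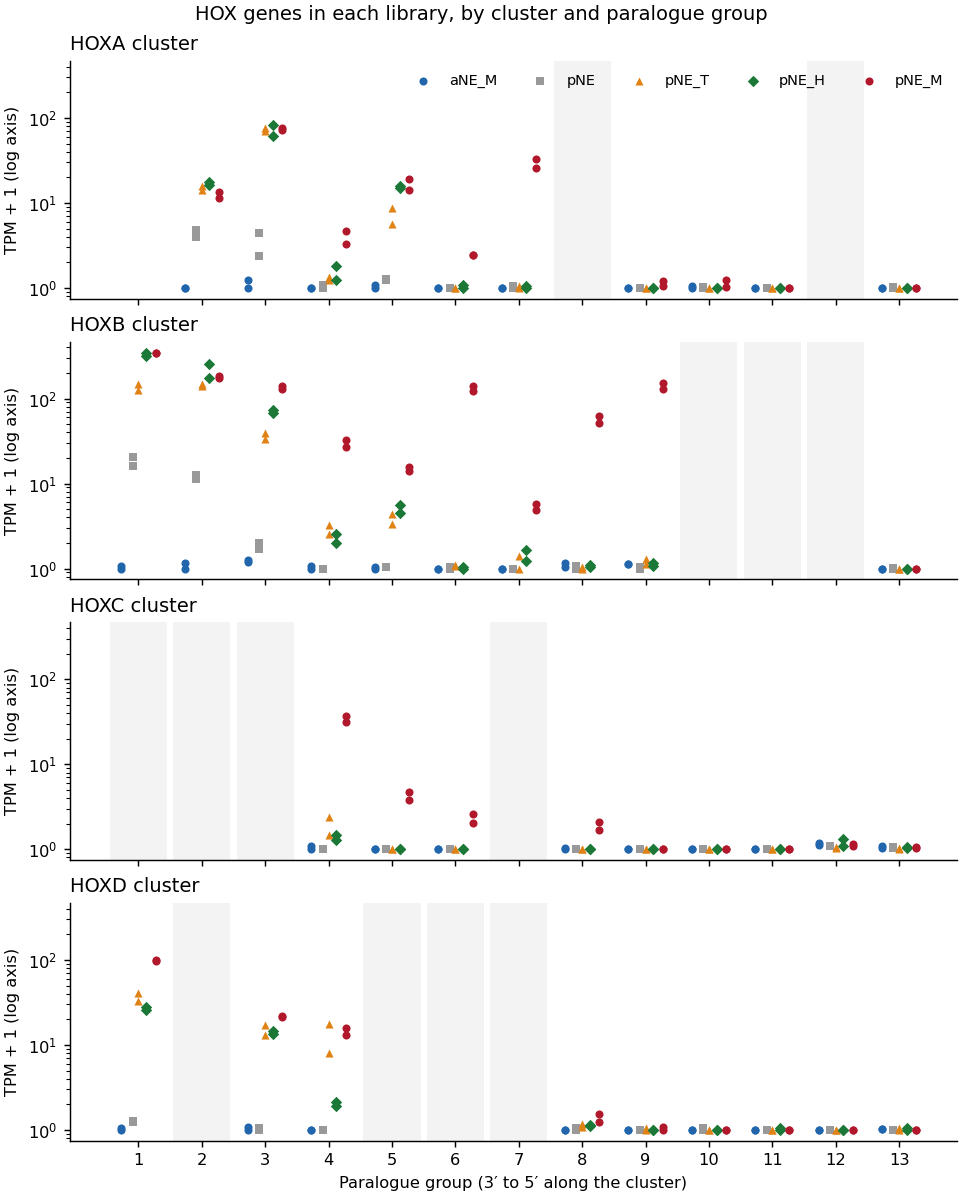
TPM + 1 (log axis) of HOX genes in each library, by cluster (panels) and paralogue group (horizontal), for aNE_M, posterior cells at day 2 (pNE) and posterior cells after forebrain (pNE_T), hindbrain (pNE_H) and midbrain medium (pNE_M). Grey bands mark paralogues that a cluster lacks, and not every gene is drawn. HOXB6, HOXB8, HOXB9 and HOXA7 rise above the baseline in pNE_M, while the genes drawn for groups 1 to 3 are raised in all 3 posterior day-4 groups.

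The 250 bases upstream of the start site are shown for HOXB1, the highest HOX gene, and for CDX2, the highest caudal factor, because both were near 0 in one origin and high in the other. Sequences are from RefSeq on GRCh38.p14, written 5′ to 3′ on the gene's own strand, which is the minus strand for both. Promoter entries matched 11 of the 22 HOX genes tested. Both strands were searched for TGATNNAT, a form of site that PBX and HOX proteins can bind together, for TTTATNG, a form bound by CDX factors, and for CTTTGAT, a form bound by TCF and LEF factors, and matches are in capitals. The HOXB1 window is chr17:48531012-48531261 and the CDX2 window is chr13:27969316-27969565.
HOXB1: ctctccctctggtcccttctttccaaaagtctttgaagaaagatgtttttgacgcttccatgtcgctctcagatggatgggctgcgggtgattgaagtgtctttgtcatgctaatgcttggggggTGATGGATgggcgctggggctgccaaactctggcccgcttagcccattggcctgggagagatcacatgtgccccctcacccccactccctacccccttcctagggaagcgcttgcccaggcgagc
CDX2: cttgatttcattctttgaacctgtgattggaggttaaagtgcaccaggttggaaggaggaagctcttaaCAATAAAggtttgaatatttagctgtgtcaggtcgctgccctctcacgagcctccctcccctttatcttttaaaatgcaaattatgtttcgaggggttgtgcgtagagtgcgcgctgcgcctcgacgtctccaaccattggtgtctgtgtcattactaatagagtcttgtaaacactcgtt
HOXB1 held 1 TGATNNAT match, TGATGGAT, starting 125 bases before the start site. CDX2 held 1 TTTATNG match, on the opposite strand, whose first base lay 181 bases before the start. Such matches occur in 6.69% (TGATNNAT), 9.29% (TTTATNG) and 2.28% (CTTTGAT) of 27303 RefSeq windows of this length, and among the 11 HOX windows 2 held TGATNNAT, 2 held TTTATNG and none held CTTTGAT. They describe the letters only.

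Caudal progenitor factors were raised with the HOX genes, 4 of 6 tested (of 10 listed) being higher and none lower. Of the 6, 1 (CDX1) was below 1 TPM in both aNE_M libraries and passed the filter through pNE_M, which fixed its direction in the count. CDX2 was at 1.76 and 1.67 TPM in aNE_M and 247 and 252 TPM in pNE_M, a difference of 6.53 ± 0.25 (SE, adjusted p = 6.37e-10). CDX1 was at 0.677 and 0.889 TPM and 127 and 98.6 TPM (adjusted p = 1.25e-10). No aNE_M library came near either pNE_M library for these genes. WNT5A, a ligand of the elongating tail end, was at 5.91 and 5.82 TPM in aNE_M and 24.7 and 22.4 TPM in pNE_M and was called higher, as was NKX1-2, a preneural factor of the caudal epiblast (6.97 and 6.55 against 20.1 and 12.6 TPM). The NKX1-2 call was lost without pNE_M replicate 1 (log2 difference 0.81). TBXT (brachyury), which neuromesodermal progenitors share with mesoderm, was low in both groups, at 2.72 and 4.01 TPM in aNE_M and 1.21 and 1.94 TPM in pNE_M, and was not called (log2 difference -0.76, adjusted p = 0.0241). TBX6, WNT3A, WNT8A and CDX4 stayed below 1 TPM in all 4 libraries.

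Midbrain and isthmus genes were lower in pNE_M: 9 of 10 tested (of 14 listed) were called lower and none higher, with a median log2 difference of -2.26 against -0.06 for all genes. Of the 10, 5 were below 1 TPM in both pNE_M libraries and passed the filter through aNE_M, which fixed their direction in the count and median. EN1, the homeobox gene that defines midbrain and anterior hindbrain, was at 141 and 128 TPM in aNE_M and was listed at 0 in both pNE_M libraries (adjusted p = 6.35e-12). PAX5, which acts with PAX2 and EN genes at the isthmus, was at 68.6 and 74.7 TPM in aNE_M and 0.198 and 0.749 TPM in pNE_M and fell by 5.65 ± 0.35 (SE, adjusted p = 5.00e-08). EN2 was at 18.8 and 16.6 TPM and 0.0405 and 0.0239 TPM, and CNPY1, an FGF signalling modulator of the isthmus, was at 8.02 and 5.47 TPM and was listed at 0 in pNE_M. Among genes that kept a level in pNE_M, FGF17, an isthmic FGF ligand, was at 86.1 and 74.3 TPM in aNE_M and 28.7 and 23.2 TPM in pNE_M (log2 difference -1.59, adjusted p = 2.48e-05). PAX2 fell by 1.58 and TAL2, a midbrain GABA neuron factor, by 2.92, and LMX1B was also called lower. FGF8, the organiser ligand itself, was only 2.5 and 2.42 TPM in aNE_M and 0.39 and 0.0899 TPM in pNE_M. Its call was lost without pNE_M replicate 2 (log2 difference -1.32). WNT1, the other organiser ligand, was at most 0.0258 TPM in all 4 libraries, and PAX8 was at most 0.296 TPM.

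Forebrain and midbrain homeobox genes shared this direction. OTX2 was at 136 and 162 TPM in aNE_M and 4.3 and 5.38 TPM in pNE_M, and OTX1 at 10.9 and 11.6 TPM and 0 and 0.0865 TPM (log2 difference -3.55 ± 0.21, adjusted p = 3.58e-08). GBX2, which opposes OTX2 at the isthmus from the hindbrain side, was not higher in pNE_M. It stood at 16.2 and 9.67 TPM in aNE_M and 5.22 and 6.44 TPM in pNE_M, just under the threshold of size at -0.99 ± 0.19 (adjusted p = 0.00224), and passed it with a pseudocount of 0.1 (-1.10), without aNE_M replicate 2 (-1.34) and without pNE_M replicate 2 (-1.12). Of 8 forebrain and eye field genes tested (of 15 listed), 7 were called lower and none higher, with a median of -1.35. However, 6 of the 8 were below 1 TPM in both pNE_M libraries and passed the filter through aNE_M, which fixed their direction. The count and median thus carry no support beyond the single values. EMX2, a dorsal forebrain factor, was at 13.2 and 14.9 TPM in aNE_M and 0.192 and 0.0748 TPM in pNE_M (adjusted p = 7.96e-09). SIX3, FEZF1 and VAX1 were at most 3.78 TPM even in aNE_M. RAX and NKX2-1 were listed at 0 in all 4 libraries.

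**Figure D3:**
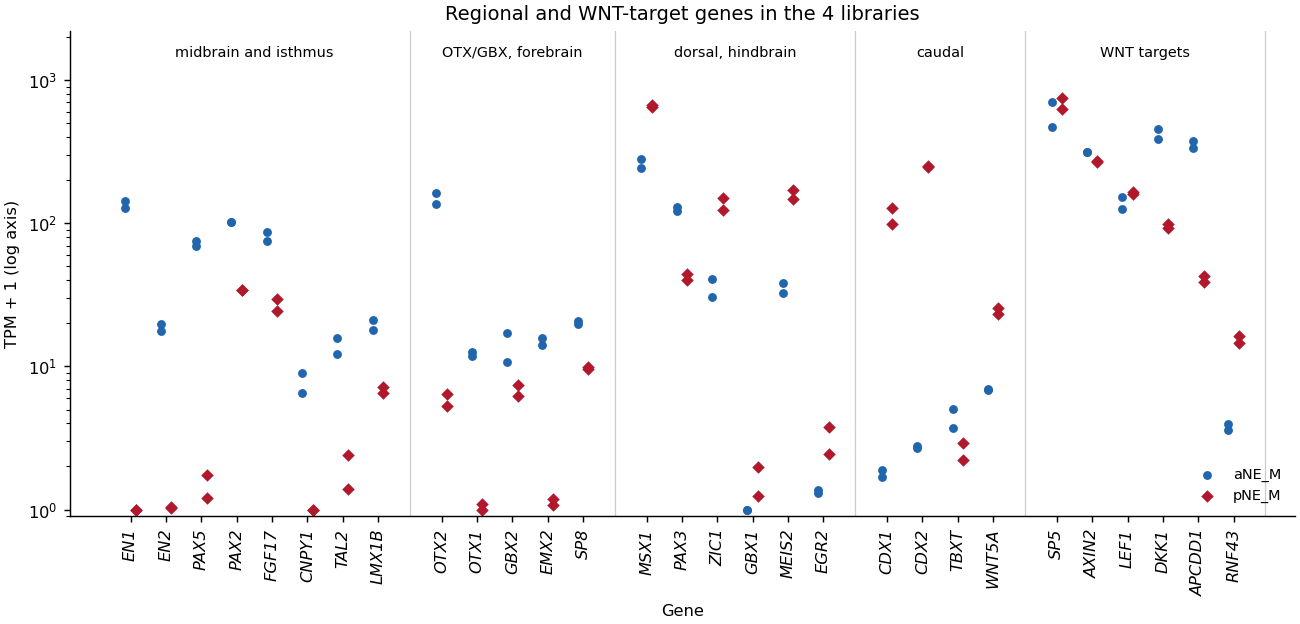
TPM + 1 (log axis) in each of the 4 libraries for genes of regional lists and WNT targets, with aNE_M as circles and pNE_M as diamonds. EN1, EN2, PAX5 and OTX1 sit at the baseline in pNE_M, CDX1 and CDX2 stand at 98.6 TPM or more in pNE_M and at 1.76 TPM or less in aNE_M, and SP5, AXIN2 and LEF1 are high in both groups.

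Hindbrain segmentation genes split, with 3 of 10 tested higher and 2 lower (median 0.30). ZNF703, a zinc finger repressor, rose from 22.3 and 21.4 to 173 and 151 TPM (log2 difference 2.83, adjusted p = 7.88e-07). Its paralogue ZNF503 was high in both, at 211 and 195 TPM in aNE_M and 148 and 152 TPM in pNE_M, and was not called (adjusted p = 0.0937). EGR2, a marker of alternate hindbrain segments, was low at 1.45 and 2.79 TPM in pNE_M, and its call was lost without pNE_M replicate 2 (log2 difference 0.87) and in a fit of the 4 libraries alone (1.18). IRX1 was lower in pNE_M (15.9 and 12.8 against 1.88 and 1.66 TPM), and IRX2 and IRX3 were not called. HOX cofactors of the MEIS family rose, MEIS1 from 1.48 and 1.64 to 27.3 and 40.6 TPM and MEIS2 from 31.5 and 37.6 to 148 and 171 TPM, whereas none of the other 6 cofactors tested passed.

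Dorsal genes were present in both origins with unequal levels. MSX1, a roof and border factor downstream of BMP and WNT signals, was at 279.8 and 243 TPM in aNE_M and 666 and 646 TPM in pNE_M (log2 difference 1.33 ± 0.20, adjusted p = 0.000306), and with a pseudocount of 0.1 the call was lost at the same difference of 1.33. PAX3 moved the other way, at 125 ± 6.78 TPM (SD, n = 2) in aNE_M and 41.0 ± 2.87 TPM in pNE_M (log2 difference -1.59). PAX7 was not called. The ventral factors FOXA2, NKX2-2, OLIG2 and SHH were at most 0.131 TPM in all 4 libraries. Of 7 dorsoventral genes tested 3 were higher and 2 lower.

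Among pan-neural progenitor genes, 1 of 13 tested was higher, 2 were lower and the median was -0.70. SOX2 was at 73.2 and 70.4 TPM in aNE_M and 127 and 103 TPM in pNE_M and was not called for its size of 0.67. SOX3, its close relative in neural progenitors, fell from 47.1 and 35.7 to 2.72 and 2.15 TPM, by 3.62 ± 0.19 (SE, adjusted p = 1.20e-08). ZIC1 was the member called higher, at 29.4 and 39.5 TPM in aNE_M and 148 and 123 TPM in pNE_M (log2 difference 1.96, adjusted p = 0.000318). SOX1 was low in both groups, at 0.316 and 0.53 and 1.03 and 1.34 TPM.

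Genes of the WNT pathway did not move as a block. Of 12 target and feedback genes tested, 3 were higher and 2 lower, with a median of 0.24. The targets read most often were high in both origins. SP5 was at 706 and 473 TPM in aNE_M and 756 and 625 TPM in pNE_M, with overlapping groups, AXIN2 at 315 and 312 TPM and 272 and 268 TPM, and LEF1 at 125 and 152 TPM and 159 and 164 TPM. None of these 3 was called, at log2 differences of 0.25 ± 0.39, -0.21 ± 0.10 and 0.23 ± 0.21. At day 2 AXIN2 had been at 6.27 and 5.55 TPM in aNE and 9.45 and 10.6 TPM in pNE, and SP5 at 1.44 and 2.08 TPM and 2.47 and 8.76 TPM. DKK1, a secreted antagonist of the WNT co-receptors, was at 387 and 459 TPM in aNE_M and 91.8 and 97.6 TPM in pNE_M and fell by 2.14 ± 0.16 (SE, adjusted p = 4.91e-07). APCDD1, a membrane inhibitor, was at 337 and 373 TPM and 41.5 and 38.1 TPM and fell by 3.12 (adjusted p = 4.56e-07). In both genes the lowest aNE_M library lay far above the highest pNE_M library. The 3 genes called higher were RNF43, LGR5 and TNFRSF19, and the other 7 were not called. RNF43, which removes Frizzled receptors, was at 2.94 and 2.61 TPM in aNE_M and 13.6 and 15.3 TPM in pNE_M, and LGR5, an R-spondin receptor, at 0.113 and 0 TPM and 2.65 and 3 TPM.

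Of 21 WNT ligands, receptors and antagonists tested (of 28 listed), 3 were higher and 4 lower. The ligand WNT4 was at 45.2 and 45.3 TPM in aNE_M and 1.63 and 0.872 TPM in pNE_M (log2 difference -4.38 ± 0.22, adjusted p = 7.10e-09), and WNT8B at 2.06 and 4.19 TPM and 0 and 0.04 TPM. WNT2B went the other way, from 4.86 and 2.95 TPM to 36.1 and 31.7 TPM (log2 difference 2.86, adjusted p = 1.19e-07). The ligands called thus differed in direction. The secreted antagonists FRZB and WIF1 were lower in pNE_M, FRZB at 36.4 and 40.6 against 6.57 and 5.72 TPM and WIF1 at 12.1 and 15 against 1.59 and 2.11 TPM. Of the listed Frizzled receptors FZD4 was called, at 2.99 and 3.53 TPM in aNE_M and 14.5 and 14.9 TPM in pNE_M.

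Retinoid pathway genes leaned towards higher levels in pNE_M, with 9 of 15 tested higher and 2 lower and a median of 1.39. The transport proteins were the most abundant. CRABP2, which carries retinoic acid to nuclear receptors, was at 2107 and 1856 TPM in aNE_M and 6949 and 7519 TPM in pNE_M (log2 difference 1.87 ± 0.09, adjusted p = 6.74e-09). STRA6, the receptor that takes up retinol, was at 146 and 152 TPM and 635 and 738 TPM. CRABP1, the paralogue of CRABP2, was lower in pNE_M, at 53.5 and 52.5 TPM against 8.69 and 9.09 TPM (log2 difference -2.45, adjusted p = 9.95e-12). All 3 receptors of the RAR family were called higher: RARA stood at 15.5 and 15.5 TPM in aNE_M and 40.6 and 44.1 TPM in pNE_M, RARB at 0.407 and 0.536 TPM and 4.48 and 5.16 TPM, and RARG at 22 and 24.2 TPM and 77.6 and 70.9 TPM. Enzymes that break down or store retinoids rose too, CYP26A1 from 2.11 and 1.15 to 35.3 and 27.1 TPM and DHRS3 from 1.24 and 1.28 to 16.6 and 17 TPM. The synthesis enzyme ALDH1A2 was low, at 0.3 and 0.906 TPM and 1.7 and 0.813 TPM, and was not tested. Of the COUP-TF receptors NR2F1 was higher and NR2F2 lower, at 20.7 and 13.4 TPM in aNE_M and 4.8 and 7.33 TPM in pNE_M.

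FGF and ERK genes were mixed. Of 11 FGF ligands and receptors tested 3 were higher and 2 lower. The ligand FGF19 fell from 67.5 and 66.8 to 8.63 and 10.6 TPM (log2 difference -2.69 ± 0.20, adjusted p = 2.99e-07). FGFR4 rose from 23.3 and 23.2 to 115 and 109 TPM (log2 difference 2.22, adjusted p = 9.07e-09), whereas FGFR1, the most abundant receptor, was at 215 and 236 TPM and 249 and 243 TPM and was not called. FGF9 was at 4.12 and 5.35 TPM in aNE_M and 15.5 and 14 TPM in pNE_M, and its call was lost with no filter (log2 difference 1.47), with a pseudocount of 0.1 (1.63) and when any of the 4 libraries was left out (1.31 to 1.62). Of 16 ERK feedback genes and ETV factors tested 3 were higher and 2 lower. The feedback genes SPRY1 and DUSP6 were not called, DUSP6 being at 228 and 225 TPM in aNE_M and 249 and 257 TPM in pNE_M. DUSP4, an ERK phosphatase, rose from 22.1 and 21.2 to 113 and 123 TPM (log2 difference 2.39, adjusted p = 2.16e-10).

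Of 14 BMP pathway genes tested 4 were higher and 1 lower. ID1, a direct BMP target, was at 58 and 45.6 TPM in aNE_M and 162 and 167 TPM in pNE_M (log2 difference 1.66, adjusted p = 1.32e-05). SMAD6 and BAMBI, feedback inhibitors of the pathway, were also higher, BAMBI at 4.92 and 5.28 against 18.2 and 17.8 TPM. BMP4 was not called (104 and 113 TPM and 133 and 132 TPM), and BMP2 was lower in pNE_M. In the hedgehog pathway 2 of 9 genes tested were higher and 1 lower: the target and receptor PTCH1 was at 31.7 and 39.2 TPM and 85.3 and 78.6 TPM, the inhibitor HHIP at 5.53 and 6.9 TPM and 34.6 and 34.3 TPM, and the co-receptor CDON fell by 1.28. GLI1 varied between replicates, at 3.31 and 8.91 TPM in aNE_M and 15.4 and 6.69 TPM in pNE_M, and was not called.

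Proneural factors differed in direction. NEUROG2 was at 0.067 and 0.22 TPM in aNE_M and 24.8 and 14.2 TPM in pNE_M (log2 difference 4.12 ± 0.25, adjusted p = 4.05e-08). NEUROG1 was at 1.68 and 3.67 TPM in aNE_M and 0.0447 and 0 TPM in pNE_M and was called lower. STMN2, a protein of growing axons, was at 20.4 and 22.4 TPM in aNE_M and 0.735 and 0.597 TPM in pNE_M (adjusted p = 1.31e-08), and the neuronal tubulin TUBB3 at 536 and 489.7 TPM and 243 and 226 TPM, whereas the neurofilament NEFM, outside the list, was called higher. The Notch effector HEY1 fell by 2.84, while HES1 was not called at 25.9 and 22.3 TPM and 25.2 and 21.9 TPM. In all 1 of 15 tested genes of this list was higher and 4 were lower. Of the 15, 1 (NEUROG2) was below 1 TPM in both aNE_M libraries and 2 (NEUROG1 and STMN2) in both pNE_M libraries. These passed the filter through the other group, which fixed their direction, so the opposite calls of NEUROG2 and NEUROG1 carry no support beyond the single values.

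Of 15 insulin-like growth factor and imprinted genes tested, 2 were higher and none lower. IGF2, a fetal growth factor whose transcripts overlap the readthrough gene INS-IGF2, was at 11.4 and 14 TPM in aNE_M and 1064 and 1156 TPM in pNE_M, and the 2 genes cannot be fully separated. IGFBP3, which binds the ligand, was at 1.51 and 1.87 TPM and 11.1 and 9.13 TPM (log2 difference 2.04, adjusted p = 2.14e-08). The receptors IGF1R and IGF2R were not called.

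Axon guidance genes had a median of -0.56 and 4 higher and 5 lower calls among 27 tested. SEMA3C, a secreted semaphorin, was at 6.19 and 6.43 TPM in aNE_M and 65.5 and 74 TPM in pNE_M (log2 difference 3.27 ± 0.30, adjusted p = 2.78e-06), and the semaphorin receptor PLXNA2 rose from 11.3 and 11.9 to 96.2 and 86.2 TPM. The repellents SLIT1 and SLIT2 differed in direction: SLIT1 was at 0.638 and 0.644 TPM in aNE_M and 5.75 and 5.48 TPM in pNE_M, and SLIT2 at 42.8 and 48.4 TPM and 17.4 and 18.5 TPM. EPHB1 fell by 1.94 (adjusted p = 2.99e-07). Among 12 cadherin and epithelial genes CDH6 and NCAM1 were higher and CDH1 and CLDN6 lower, CLDN6 at 109 and 103 TPM in aNE_M and 35.6 and 37.7 TPM in pNE_M. CDH1 was at 3.04 and 2.97 TPM and 1.2 and 0.759 TPM, and its call was lost with median-ratio scaling (-0.98) and without pNE_M replicate 2 (-0.87). CDH2, the neural cadherin, was not called for its size of -0.72. Of 24 matrix and integrin genes COL11A1 (higher) and ITGA3 (lower) were called, ITGA3 falling just under the limit of size without aNE_M replicate 2. Over all genes tested 6.84% were called, so this count does not set the list apart.

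Because plating density differed with origin, density-related genes were listed as well. Of 16 Hippo pathway genes 5 were higher in pNE_M, none was lower, and the median was 0.62. CCN2 and CCN1, targets of YAP and TEAD, were at 18.8 and 18.7 TPM and 8.51 and 6.54 TPM in aNE_M and at 71.2 and 75.8 TPM and 28.7 and 26.9 TPM in pNE_M. ANKRD1, another target, was at 0.491 and 0.306 TPM and 10.6 and 7.35 TPM (log2 difference 2.82, adjusted p = 2.93e-07). AMOTL2 and AJUBA were also higher, and YAP1 itself was not called for its size of 0.48. Of 14 cell cycle genes and 14 cholesterol synthesis genes none was called, MKI67 being at 40.3 and 52.2 TPM in aNE_M and 53.9 and 52.3 TPM in pNE_M. With limma at an unadjusted p under 0.05 and no limit on size, 5 of the cell cycle genes and 8 of the cholesterol genes passed, against 31.7% of all genes tested. Of 14 hypoxia and glycolysis genes 1 was called, against 6.84% of all genes tested. It was ADM, at 2.06 and 1.41 TPM and 19.2 and 17.2 TPM, while the glucose transporter SLC2A1 was at 1076 and 864 TPM and 708 and 747 TPM. The part of plating density in any of these differences was not tested.

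Markers of other cell types were few and mixed, and their part in the other results was not tested. Mesoderm markers summed to 113 and 137 TPM in aNE_M and 57.4 and 57.7 TPM in pNE_M, and of 7 tested 2 were higher and 2 lower. The sum was led by MIXL1, a primitive streak factor, at 78 and 94.9 TPM in aNE_M and 12.2 and 10.9 TPM in pNE_M (log2 difference -2.80 ± 0.26, adjusted p = 3.17e-06). EOMES, which marks streak and also forebrain progenitors, was at 16.2 and 16.9 TPM in aNE_M and 0.317 and 0.274 TPM in pNE_M (log2 difference -3.76, adjusted p = 3.77e-09). MESP1 and MSGN1, which define nascent and paraxial mesoderm, stayed below 1 TPM, and TBXT was low as given above. HAND1 and TWIST1 were higher in pNE_M, HAND1 at 0.522 and 0.624 against 5.34 and 5.36 TPM. Of the 7 mesoderm markers tested, 2 were below 1 TPM in both aNE_M libraries and 1 (EOMES) in both pNE_M libraries. The filter fixed the direction of these markers. Neural crest markers summed to 82.5 and 94 TPM in aNE_M and 113 and 109 TPM in pNE_M, with 2 of 9 tested higher and 3 lower. Of the 9, 2 (FOXD3 and SOX10) were below 1 TPM in both aNE_M libraries and 1 in both pNE_M libraries. The filter fixed their direction. FOXD3, a crest specifier that stem cells also express, was at 0.0296 and 0.0728 TPM in aNE_M and 20.2 and 11.6 TPM in pNE_M (log2 difference 3.96, adjusted p = 3.06e-08), and SOX10 was at 0.539 and 0.756 TPM and 5.35 and 5.43 TPM. TFAP2B, ETS1 and NGFR were lower in pNE_M, and the NGFR call was lost with median-ratio scaling (-0.97), with quantile normalization (-0.96) and without pNE_M replicate 1 (-0.98).

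Endoderm markers summed to 14.2 and 16.4 TPM in aNE_M and 39.4 and 36.7 TPM in pNE_M, of which CXCR4, which is not specific to endoderm, made up most, and SOX17 was listed at 0 in all 4 libraries. Of 6 tested, CER1, GATA6 and CXCR4 were higher in pNE_M and FOXA1 lower. However, 4 of the 6 were below 1 TPM in both aNE_M libraries and 1 in both pNE_M libraries, which fixed their direction. The FOXA1 call was lost in a fit of the 4 libraries alone (log2 difference -1.04), without pNE_M replicate 1 (-0.89) and without aNE_M replicate 2 (-0.97). Pluripotency markers summed to 262 and 277 TPM in aNE_M and 223 and 226 TPM in pNE_M, NANOG being at most 0.353 TPM and POU5F1 at 2.9 and 2.65 TPM and 4.17 and 5.31 TPM, and ZFP42 was the 1 member called, lower in pNE_M. Surface ectoderm and placode markers summed to 725 and 681 TPM in aNE_M and 1273 and 1353 TPM in pNE_M, which was almost entirely the keratins KRT18 and KRT19. KRT18 was at 502 and 478 TPM and 1049 and 1125 TPM and was called higher, EYA1 and DLX3 were called lower, DLX3 not with no filter (-1.12), a pseudocount of 0.1 (-1.44), without pNE_M replicate 1 (-0.91) or without aNE_M replicate 2 (-0.91), and TP63, GATA3 and TFAP2A were at most 1.39 TPM. In the blood and endothelium list KDR was lower in pNE_M, at 5.13 and 6.7 TPM in aNE_M and 0.133 and 0.289 TPM in pNE_M, and PECAM1, CDH5, TAL1 and SPI1 were at most 0.451 TPM. Mitochondrial transcripts took 1.53% and 1.85% of the TPM in aNE_M and 2.04% and 1.80% in pNE_M.

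**Figure D4:**
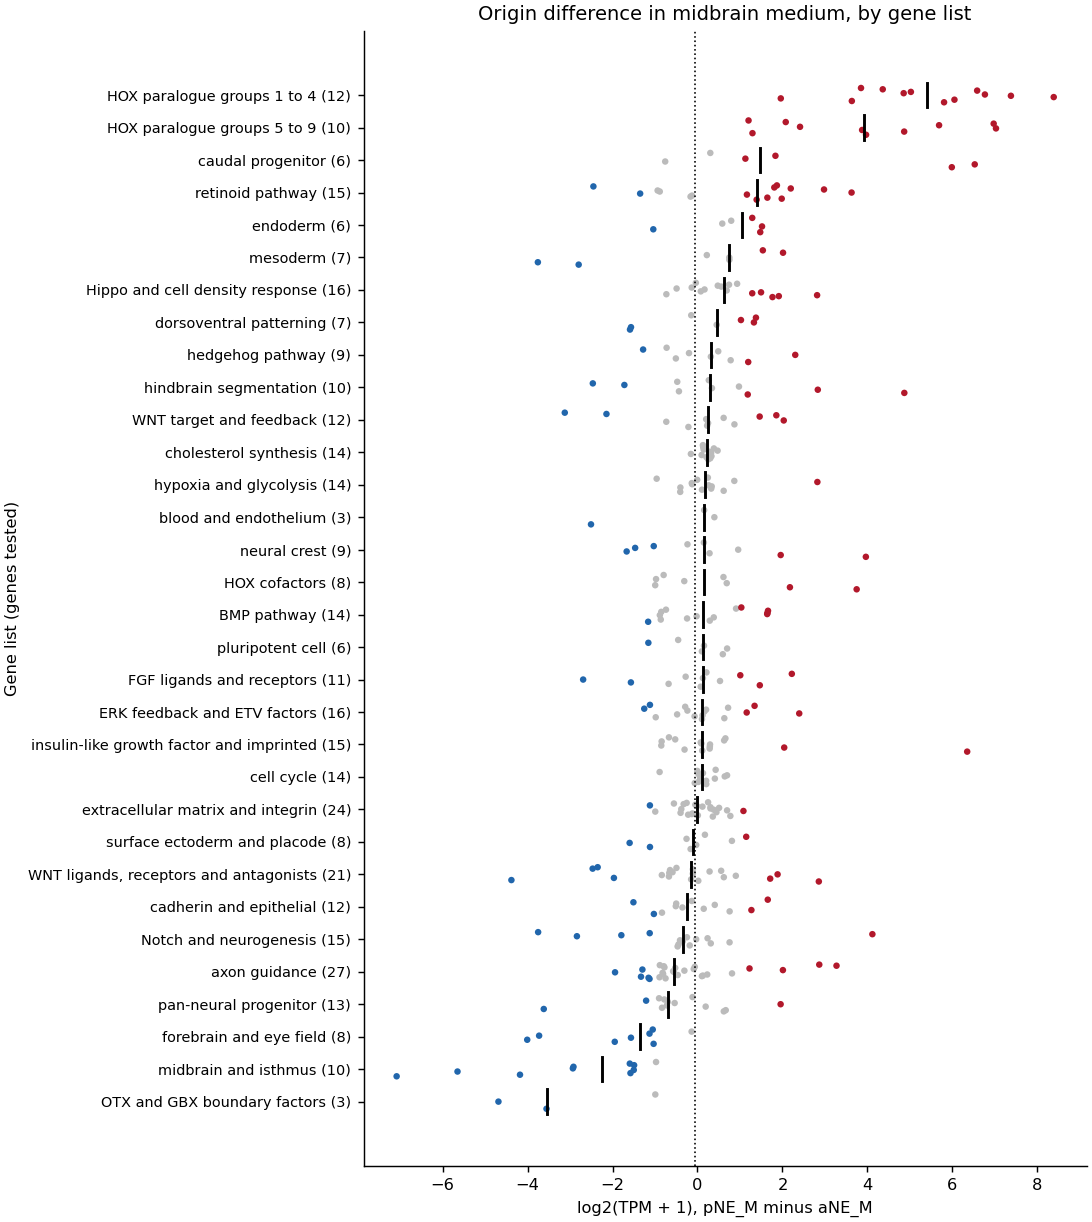
Difference in log2(TPM + 1), pNE_M minus aNE_M, of each tested gene by list (genes tested in brackets), with called genes in colour, a black bar at each list's median and a dotted line at the median of all genes. HOX lists lie to the right and the OTX, midbrain and forebrain lists to the left, while WNT targets, FGF, BMP and cell cycle lists spread around the dotted line. All HOX genes drawn, and some genes of the OTX, midbrain, forebrain and many other lists, passed the filter through a single group, which fixed their side. In the endoderm list this held for 4 genes that entered through pNE_M and 1 through aNE_M, of 6 tested.

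Genes outside these lists were named for the size of their difference or their level. URAD, a urate pathway gene, was at 0.391 and 0.0809 TPM in aNE_M and 72.6 and 63.1 TPM in pNE_M (log2 difference 5.81 ± 0.21, adjusted p = 2.55e-10). It lies next to CDX2 on the same chromosome (chr13:27977717-27988693 against chr13:27960918-27969315), with 8401 bases and no RefSeq gene between them. CLDN11, a tight junction claudin, was at 1.61 and 1.05 TPM in aNE_M and 98.7 and 91.2 TPM in pNE_M, and the teashirt zinc finger gene TSHZ1 at 0.178 and 0.258 TPM and 46.4 and 46.2 TPM. Among the largest falls, MYO3B, an unconventional myosin, was at 111 and 139 TPM in aNE_M and 6.22 and 5.48 TPM in pNE_M (log2 difference -4.20 ± 0.17, adjusted p = 7.97e-10). VSNL1, a neuronal calcium sensor, was at 60.4 and 72.2 TPM and 1.86 and 2.5 TPM, and the phospholipid flippase ATP8A1 at 22.6 and 31.6 TPM and 0.621 and 0.758 TPM. XKR7 and FAM181B fell by 3.76 and 3.67.

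Of the abundant called genes, KRT8, the partner of KRT18, was at 470.2 and 435 TPM in aNE_M and 1002 and 986 TPM in pNE_M. TAGLN, an actin-binding protein, rose from 107 and 93.2 to 421 and 441 TPM and NEFM from 84 and 84.4 to 379 and 397 TPM. CLU, a secreted chaperone, was at 1341 and 1406 TPM in aNE_M and 476 and 388 TPM in pNE_M (log2 difference -1.67, adjusted p = 1.19e-06). SAT1, a polyamine acetyltransferase, fell from 295 and 299.7 to 46.2 and 38.5 TPM, by 2.79. NQO1, an oxidative stress enzyme, fell by 1.06, and with median-ratio scaling it lay just under the limit of size.

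Whether the effect of origin depended on the medium was tested as the difference between 2 origin differences, in the same fit. These tests all use the 4 midbrain libraries and are not independent of each other. Against forebrain medium 1131 genes (7.94%) passed, against hindbrain medium 1062 (7.45%), and against the origin difference at day 2, before the medium, 1105 (7.76%). Plating density differed with origin at day 4 but not at day 2, so the day-2 test cannot separate stage, medium and density. The comparison by origin called 1083 genes (7.6%) in forebrain medium, 978 (6.86%) in hindbrain medium and 529 (3.71%) at day 2. These counts are on the same 14247 genes, filtered on the midbrain libraries, so genes expressed only in another setting are not counted. Of the genes higher in pNE_M, 211 were also higher with posterior origin in forebrain medium, which is 38.9% of the midbrain list and 39.2% of the forebrain list. The shares were 41.0% and 41.9% for hindbrain medium (222 genes) and 18.6% and 30.1% for day 2 (101 genes). For lower genes they were 31.9% and 25.3% (138 genes), 31.0% and 29.9% (134 genes) and 9.03% and 20.2% (39 genes). Calls in the opposite direction were 20, 24 and 15 of the 542 higher genes in forebrain medium, in hindbrain medium and at day 2, and 22, 18 and 41 of the 432 lower genes. For lower genes at day 2 the opposite calls (9.49%) outnumbered the shared ones. These comparisons share no library with the midbrain comparison, but they share its gene filter and the variance pooled over all libraries. Of all 14247 genes tested, 538 were higher with posterior origin in forebrain medium, 530 in hindbrain medium and 336 at day 2. The lower genes numbered 545, 448 and 193. Across genes the origin difference in midbrain medium correlated with that in forebrain medium at r = 0.41, in hindbrain medium at 0.43 and at day 2 at 0.18, as a description over genes that are not independent replicates.

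The origin difference in midbrain medium was called, and also differed from that in forebrain and in hindbrain medium in the same direction, for 164 genes higher and 151 lower in pNE_M. These are counts out of the 14247 genes tested. The filter used the midbrain libraries alone, which favours this pattern for genes that entered only through pNE_M or only through aNE_M. Trunk HOX genes and caudal factors were among those higher in pNE_M, and the trunk HOX genes and CDX1 had entered through pNE_M alone. HOXB6 had an interaction of 6.93 ± 0.25 (SE) against forebrain medium (adjusted p = 1.57e-09) and also passed against hindbrain medium (adjusted p = 2.34e-09). CDX2 gave 6.27 and 4.77, and CDX1 5.81 and 5.66. After hindbrain medium CDX2 was at 3.34 and 4.39 TPM in posterior cells. For HOXB2 the interactions of 0.21 (adjusted p = 0.627) and -0.33 (adjusted p = 0.381) did not pass. Of the 10 tested genes in groups 5 to 9, 10 passed the interaction with forebrain medium and 9 that with hindbrain medium, all with the larger difference in midbrain medium. All 10 had entered the test through pNE_M alone, which favours that direction, so the count adds no support to the single values.

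Of the 10 midbrain and isthmus genes tested, 6 had a more negative origin difference than in forebrain medium and 7 than in hindbrain medium, and 1 in each case went the other way (FGF8 and FGF17). Of these 10, 5 had entered the test through aNE_M alone. The forebrain libraries of either origin listed EN1 at 0, and it was at 0.989 and 0.749 TPM in aNE_H, so its origin difference in midbrain medium differed from that in hindbrain medium (adjusted p = 3.03e-09). PAX5 was at 8.77 and 19.1 TPM in aNE_H and 0.111 and 1.3 TPM in pNE_H, and its difference was still larger in midbrain medium by -2.52 ± 0.49 (SE, adjusted p = 0.0031). OTX2 did not pass against forebrain (0.55, adjusted p = 0.095) and was lay just under the limit of size against hindbrain medium (adjusted p = 0.0038). ZNF503 showed the reverse case: it was at 1.59 and 1.09 TPM in aNE_T and 79.2 and 88.5 TPM in pNE_T, an origin difference that midbrain medium did not show (interaction -5.62 ± 0.24, adjusted p = 5.60e-09).

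Some retinoid genes had a smaller origin difference after midbrain medium. RARB was at 77.8 and 85.2 TPM in pNE_T and 56.9 and 65.5 TPM in pNE_H, against 4.48 and 5.16 TPM in pNE_M, with interactions of -3.68 and -3.55 (adjusted p = 8.58e-08 and 1.67e-07). DHRS3 was at 119.7 and 138 TPM in pNE_T and 16.6 and 17 TPM in pNE_M (interaction -3.27). NELL1, a secreted growth regulator, was at 79.5 and 89.9 TPM in pNE_T and 72.5 and 90.9 TPM in pNE_H but 0.922 and 1.1 TPM in pNE_M (interactions -7.70 and -7.09). The neuropeptide gene SPX was at 407 and 438 TPM in pNE_T and 2.71 and 4.43 TPM in pNE_M (interaction -5.37, adjusted p = 1.60e-07). ZIC1 changed sign: it was at 80 and 73.9 TPM in aNE_T and 1.05 and 1.56 TPM in pNE_T, lower with posterior origin, and higher with posterior origin in midbrain medium (interaction 7.04 ± 0.42, adjusted p = 9.68e-08). SST, the somatostatin gene, was at 1.62 and 2.05 TPM in aNE_M and 70.8 and 64.4 TPM in pNE_M but at 39.8 and 34.4 TPM in aNE_H and 8.33 and 8.12 TPM in pNE_H (interaction 6.64, adjusted p = 5.74e-09).

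At day 2, before the midbrain medium, the 2 origins differed in partly other genes. GBX2 was at 1.04 and 1.05 TPM in aNE and 172 and 216 TPM in pNE at day 2, a difference of 6.56 that was not called at day 4 (interaction -7.56 ± 0.28, adjusted p = 8.94e-10). ZNF503 likewise was at 1.04 and 1.43 TPM in aNE and 88.1 and 122 TPM in pNE (interaction -5.99). HOXB1 widened from 15.2 and 19.5 TPM in pNE to the levels given above (interaction 4.20, adjusted p = 7.79e-09). Of 12 genes of groups 1 to 4, 11 had a larger and 1 a smaller origin difference than at day 2, where 7.76% of all genes tested passed either way. All 12 had entered the test through pNE_M alone, which favours a larger difference, so the count adds no support to the single values. CYP26A1 was at 219 and 223 TPM in aNE and 352 and 348 TPM in pNE at day 2, against 2.11 and 1.15 TPM in aNE_M and 35.3 and 27.1 TPM in pNE_M at day 4. In all 4 settings the origin difference was called in the same direction for 58 genes higher and 18 lower with posterior origin, of 14247 tested.

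**Figure D5:**
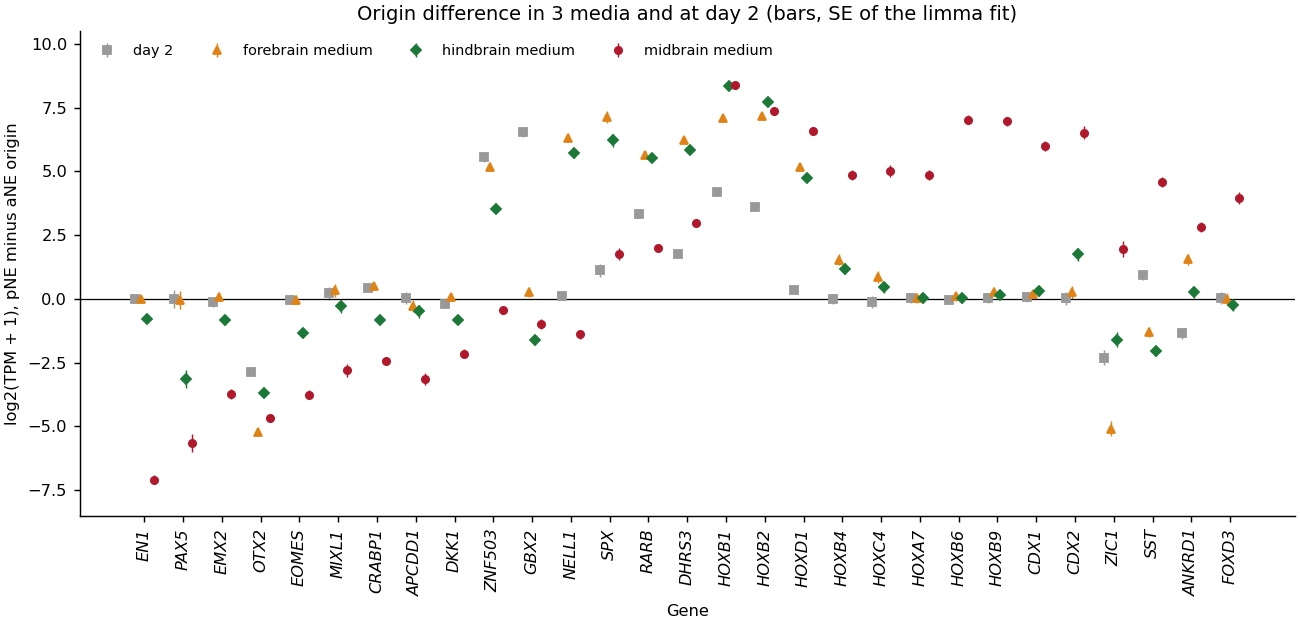
Origin difference in log2(TPM + 1), posterior minus anterior, for named genes at day 2 and after forebrain, hindbrain and midbrain medium, with bars for the SE of the limma fit. EN1, PAX5 and EMX2 each fall further in midbrain medium than in the other settings. HOXB6, HOXB9, HOXA7 and CDX1 leave 0 in midbrain medium, and HOXB1 and HOXB2 are high in all 3 media.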

How the data were processed

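Messenger RNA of the H1 line was selected with poly-T beads before library preparation, per the labels' protocols. The authors deposited 1 table of TPM values with 37550 rows (7898 of them transcript identifiers with no gene symbol) and 18 library columns. The submitters' processing notes name hg38, bcl2fastq, FastQC, Trim Galore, kallisto and deepTools, with no versions or roles. TPM keeps no read number, so depth and counting error are unknown.

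Values were analysed as log2(TPM + 1). Differences on this scale understate changes of low genes. With limma 3.58.1 in R 4.3.3, 1 mean per group was fitted to all 18 libraries (9 groups, 9 residual degrees of freedom) with a variance trend. Two-sided p-values were adjusted by the Benjamini-Hochberg method over the 14247 genes that reached 1 TPM in 2 or more of the 4 libraries compared. A call needed an adjusted p below 0.05 and a difference of 1 or more in either direction. An interaction was the origin difference in midbrain medium minus that in another setting. The fit was tested on simulated data. Errors are SE from limma.

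The members and the 32 gene lists (466 genes, 464 in the table, 375 tested) were chosen with earlier results of these data known. Counts cover whole lists, but some of their genes are not reported here by name. Named genes were the list genes, the 15 largest rises and falls called (symbol given, no overlap between groups, and a mean of 5 TPM or more on the higher side), the 8 largest interactions each way, and the 8 most abundant called genes each way. Alternatives were another pseudocount (0.1), other filters (none, 5 TPM, or 1 TPM in 2 of the 18 libraries), quantile normalization, median-ratio scaling, a replicate block, a fit restricted to the libraries compared, calls by adjusted p alone, and leaving out each replicate. Upstream sequences and gene positions came from RefSeq tables on GRCh38.p14.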

Additional observations from a re-analysis of the deposited data

Results flagged for a closer look

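The origin difference in midbrain medium differed from that in forebrain medium for 1131 genes, from that in hindbrain medium for 1062 genes and from that at day 2 for 1105 genes, each by a test of the difference itself. Among named genes, those below were called in opposite directions in midbrain medium and in another setting, and the values are interactions on the log2 scale, midbrain medium minus the other setting.

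Higher with posterior origin in midbrain medium and lower in another setting were ZIC1 (7.04 against forebrain medium, 3.56 against hindbrain medium and 4.26 against day 2), SST (5.91 against forebrain medium and 6.64 against hindbrain medium) and MSX1 (2.43 against hindbrain medium). ZIC1 and MSX1 are dorsal neural genes, and both were above 100 TPM in pNE_M.

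Lower with posterior origin in midbrain medium and higher in another setting were the apelin receptor APLNR (-4.37 against forebrain and -5.38 against hindbrain medium), the adhesion genes CDH18 (-4.74 against forebrain medium and -4.21 against day 2) and FLRT3 (-4.29 against hindbrain medium), and the flippase ATP8A1 (-5.34 against forebrain medium). The secreted factor NELL1 gave -7.70 and -7.09 against forebrain and hindbrain medium, and the semaphorin SEMA5B -3.06 and -4.43. SHISA2, an inhibitor of WNT and FGF receptor maturation, gave -4.97 against hindbrain medium. Against day 2 the values were -5.66 for CEACAM21, -5.58 for TMEM59L, -5.37 for F13A1, -3.80 for SAT1 and -2.07 for NQO1. The F13A1 call in midbrain medium was lost without aNE_M replicate 2 (-0.94).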

How the results depend on the processing

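The 4 counts kept within 1.5 times of their reported values under every alternative run except calls by adjusted p alone, which gave 2902 genes by origin in midbrain medium (1204 higher and 1698 lower), 2053 for the interaction with forebrain medium, 2242 with hindbrain medium and 2337 with day 2. By adjusted p alone 41.5% of calls in midbrain medium were higher, against 55.6% as reported and 59.4% (979 genes, 582 higher and 397 lower) with median-ratio scaling, so the prevailing direction depends on the limit of size. Leaving out each replicate gave 942 to 981 genes by origin, 1009 to 1072 against forebrain medium, 990 to 1046 against hindbrain medium and 988 to 1117 against day 2, the lone library left in a group being assumed to vary like the other groups. Replicate numbers are shared by the groups, but deviations of same-numbered libraries correlated at 0.034 between aNE_M and pNE_M and from -0.13 to 0.11 over 36 pairs of groups, so the numbers were not taken to pair the libraries. A replicate block gave 972, 1121, 1064 and 1101 genes and changed no call of the named genes. Among 177 named gene differences, 24 crossed a threshold under at least 1 alternative and none reversed. Beside those given above they include SP8, VAX1, FGF12 and EFNA5. The cause of these crossings was not tested. With 2 libraries a group and no read numbers, differences near the limit of size and levels near 1 TPM are the least certain.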

Other observations

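Genes outside the lists that differed by origin in midbrain medium and also by both medium interactions are given here, all chosen after their values were seen. Secreted WNT antagonists among them differed in direction. The filter fixed this for DKK4, which entered the test through aNE_M alone, and for SOST, which entered through pNE_M alone. DKK4, a relative of DKK1, was at 11.2 and 17 TPM in aNE_M and 0.1 and 0.244 TPM in pNE_M (log2 difference -3.66, adjusted p = 7.95e-08). SOST, the sclerostin gene, was at 0.0335 and 0 TPM in aNE_M and 6.05 and 7.06 TPM in pNE_M (log2 difference 2.89, adjusted p = 4.49e-07). KREMEN2, a receptor for DKK proteins, was lower in pNE_M, at 19.5 and 15.6 TPM against 3.51 and 3.84 TPM, as was SULF1, which edits heparan sulphate, at 88.9 and 116 TPM against 6.47 and 8.04 TPM.

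HAS2, which makes hyaluronan, was at 2.43 and 2.97 TPM in aNE_M and 58.8 and 55.7 TPM in pNE_M (log2 difference 3.98, adjusted p = 1.89e-09). The immediate early gene JUN was at 0.946 and 0.882 TPM and 27.7 and 30 TPM, the natriuretic peptide gene NPPB at 0.156 and 0 TPM and 25.1 and 21.9 TPM, and the phosphatase receptor PTPRZ1 at 30.2 and 36.5 TPM and 222 and 226 TPM. MYOD1, the muscle regulator, stood at 12.4 and 14.8 TPM in pNE_M and was listed at 0 in either aNE_M library.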
